A study of Mus musculus with 6 samples.

Results

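The 43 genes described here are interferon-stimulated genes, measured in alveolar macrophages sorted from the lung, where these cells patrol the air spaces. They were chosen by name from known families of such genes, with earlier results of these data known. All 43 were found among the 46078 gene rows of the count table. The controls were untreated Car4fl/fl mice, which carry loxP-flanked (floxed) alleles of Car4, the gene of the membrane-anchored carbonic anhydrase (3 mice). The Car4fl/fl-CD11cCre mice, also untreated, carry the same floxed alleles and in addition a Cre recombinase driven by CD11c, an integrin of alveolar macrophages and dendritic cells (3 mice). Each mouse gave 1 library of polyadenylated RNA. The sources used here do not give age, sex or sorting gate. Mice with the Cre but without floxed Car4 were not analysed here, and effects of the transgene and of Car4 deletion cannot be told apart.

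Interferons are cytokines by which cells warn each other of viruses. Type I interferons bind the receptor chains Ifnar1 and Ifnar2, whose kinases Jak1 and Tyk2 activate a transcription factor complex that includes Stat2 and Irf9 and binds the interferon-stimulated response element, ISRE, in the promoters of target genes. Type II interferon acts through Ifngr1 and Ifngr2 and the gamma-activated site, GAS. The products of the target genes sense foreign RNA, cut or sequester it, block viral entry and assembly, or feed back on the pathway. Alveolar macrophages are known as a source of type I interferon in the virus-infected lung, and uninfected macrophages keep a low basal expression of many of these genes.

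Gene counts per library ran from 53824475 to 65443314. Levels are in CPM, counts scaled to a common library size with TMM factors, and 3 values in a row stand for replicates 1, 2 and 3 of a group. A count of 0 allows up to 3 counts, which here corresponds to 0.0465 to 0.0557 CPM. Car4 stood at 499, 385 and 270.4 CPM in the controls and 40.2, 46.9 and 36.3 CPM in the Cre libraries. Of 11 alveolar macrophage markers each was detected in every library, with Itgax, which encodes CD11c, at 1869, 1725 and 1484 against 2386, 2578 and 2349.7 CPM and Siglecf at 752, 663 and 708 against 592, 464 and 585 CPM. At an unadjusted p under 0.05 by edgeR, 3 of the 11 markers (Marco, Itgax and Chil3) were higher in the Cre libraries. Another 3 (Siglecf, Ear1 and Krt79) were lower. That is 27.3% each way, against 6.54% of all tested genes higher and 6.28% lower. The 11 markers summed to 24024, 23382 and 26801 CPM in the controls and 29001, 37529 and 42455 CPM in the Cre libraries, mostly Chil3. Fold changes are log2, Cre over control, with their standard error after ±, and 15147 genes were tested. In bulk RNA, more cells with a transcript and more transcript per cell cannot be told apart.

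The interferon-stimulated genes chosen here stood slightly above control as a set in the Cre libraries. Of their groups, the 6 oligoadenylate synthetase (OAS) members stood furthest above. The OAS genes Oas1b and Oas1c, which were not chosen, had log2 fold changes of 0.014 and -0.23. Because the choice was made with earlier results known, no set test is given. Among 50 other tested interferon-stimulated genes 70% had a higher fitted value, and the median log2 fold change was 0.075. Of the 43 genes 42 passed the filter on low counts, and 39 of these had a higher fitted value in the Cre libraries. That is 92.9% of them, against 49.4% of all tested genes. Their median log2 fold change was 0.19, against -0.0019 over all tested genes. None passed edgeR's quasi-likelihood test after Benjamini-Hochberg adjustment over all genes, and their adjusted p values lay between 0.146 and 0.997. Over all tested genes 0.0132% passed, namely Car4, which was lower, and Plcb4, which was higher. At an unadjusted p under 0.05, edgeR placed 18 of the 42 (42.9%) higher and 0 lower, where 6.54% of all tested genes were higher and 6.28% lower. The values of the groups did not overlap for 21 of the 42, all higher in the Cre libraries, against 8.63% of all tested genes higher and 9.22% lower. DESeq2 called 6 of the 42 higher (Oas1g, Oas2, Oas3, Oasl2, Slfn5 and Ifi47) and 0 lower, against 2.37% and 1.51% of the genes it gave an adjusted p. By edgeR without a filter on low counts, 5 were called higher (the same genes without Ifi47), against 1.23% of all genes higher and 0.665% lower. Limma-voom called none of them and 0.0132% of all tested genes. The members' summed level was 970.2, 933 and 970.0 CPM in the controls and 1032, 1083 and 1076 CPM in the Cre libraries, so the sums did not overlap. Without Slfn2, the most abundant member, the sums were 781, 761 and 788 against 834, 871 and 851 CPM.

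**Figure D1:**
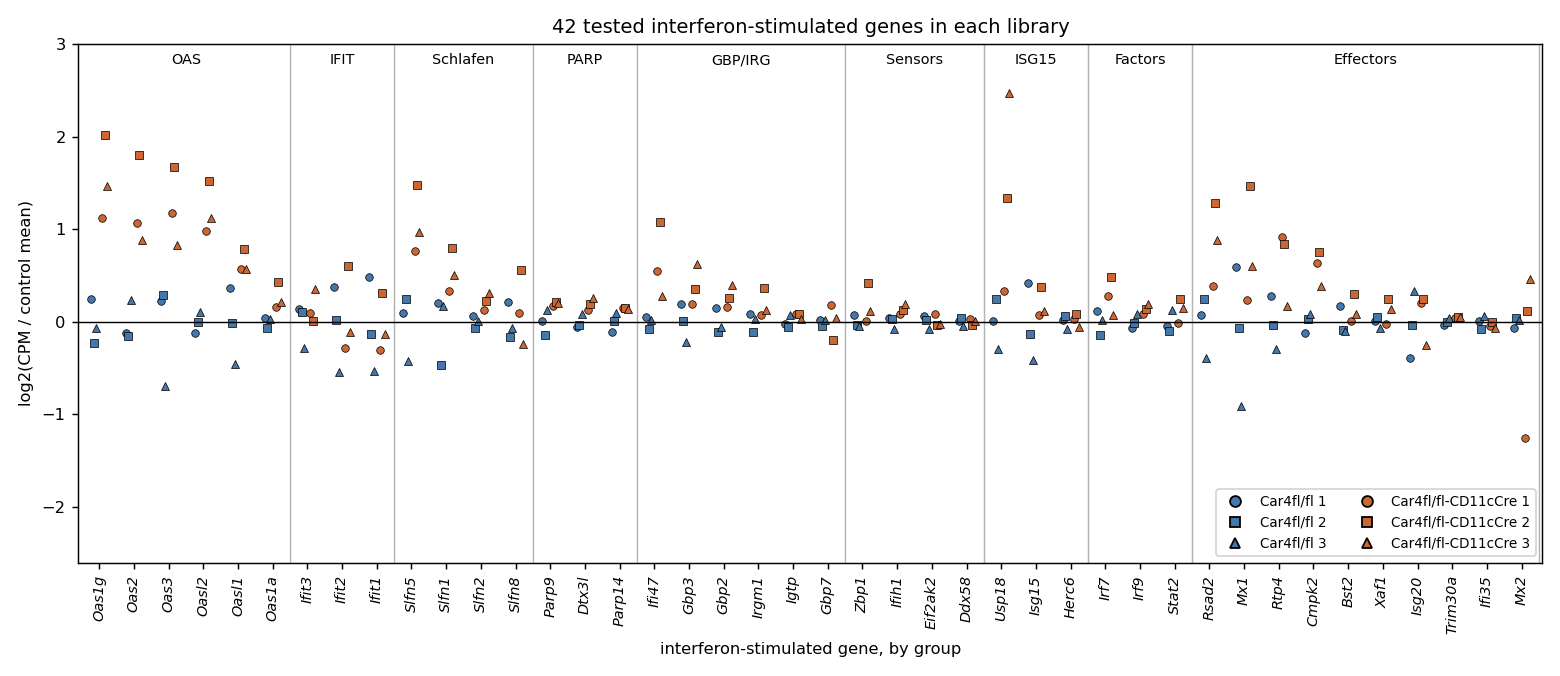
Each of the 42 tested genes in each of the 6 libraries, as the log2 ratio of its CPM to the mean of the controls (blue, Car4fl/fl; orange, Car4fl/fl-CD11cCre; circle, square and triangle for replicates 1, 2 and 3). All 6 OAS genes have their Cre values above their control values, whereas the 3 IFIT genes do not separate.

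Promoters are shown for OAS genes, because this group stood furthest above control, with both close copies Oas1a and Oas1g, and for Slfn5, which had the smallest p outside that group. Each sequence holds the 250 bases before a transcription start of RefSeq (GRCm38.p6), in the direction of transcription, and capitals mark matches to the ISRE core on either strand, which reads GAAA, any 2 bases, GAAA, with overlapping matches kept. Oas2 was not matched to an entry.
Oas1a (chr5:120907526-120907775, minus strand): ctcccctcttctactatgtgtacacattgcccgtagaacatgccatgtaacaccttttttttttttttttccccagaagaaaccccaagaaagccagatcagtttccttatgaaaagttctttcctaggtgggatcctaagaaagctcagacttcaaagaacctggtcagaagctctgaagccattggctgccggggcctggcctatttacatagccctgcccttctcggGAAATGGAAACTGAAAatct
Oas1g (chr5:120887614-120887863, minus strand): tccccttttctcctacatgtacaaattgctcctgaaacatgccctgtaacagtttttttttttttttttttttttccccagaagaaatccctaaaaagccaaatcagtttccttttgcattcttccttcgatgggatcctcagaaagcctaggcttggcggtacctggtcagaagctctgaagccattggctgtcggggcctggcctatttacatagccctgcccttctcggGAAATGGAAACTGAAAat
Oas3 (chr5:120777660-120777909, minus strand): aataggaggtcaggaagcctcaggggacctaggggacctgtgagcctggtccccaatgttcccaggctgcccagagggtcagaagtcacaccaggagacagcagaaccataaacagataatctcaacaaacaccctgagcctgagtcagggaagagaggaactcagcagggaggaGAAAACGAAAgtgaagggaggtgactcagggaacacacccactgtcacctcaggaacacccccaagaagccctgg
Oasl2 (chr5:114896684-114896933, plus strand): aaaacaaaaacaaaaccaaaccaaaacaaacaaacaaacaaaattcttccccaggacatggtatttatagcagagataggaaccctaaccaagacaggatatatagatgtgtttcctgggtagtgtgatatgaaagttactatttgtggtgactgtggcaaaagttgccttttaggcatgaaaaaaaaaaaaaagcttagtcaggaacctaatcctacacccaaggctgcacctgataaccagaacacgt
Slfn5 (chr11:82951852-82952101, plus strand): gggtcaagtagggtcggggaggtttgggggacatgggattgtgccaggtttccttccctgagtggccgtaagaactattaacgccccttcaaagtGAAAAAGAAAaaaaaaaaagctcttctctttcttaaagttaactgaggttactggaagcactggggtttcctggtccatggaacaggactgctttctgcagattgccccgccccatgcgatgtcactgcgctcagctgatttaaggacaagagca
Oas1a and Oas1g each hold a pair of overlapping ISRE matches just before the start, at -20 and -14 in Oas1a and at -18 and -12 in Oas1g, counted to the first base of the match. The longest identical stretch of these promoters is 56 of 250 bases and includes the matches. Oas3 has 1 match, 75 bases before its start, and Slfn5 1 match, 155 bases before its start, amid repeated A. In GENCODE the Slfn5 window also holds the start of a noncoding Slfn5 transcript, and the Oas3 window the start of the antisense gene Gm43069. In Oasl2, and also in Oasl1, Ifi47, Slfn2 and Dtx3l, these letters do not occur in the window. The window searched ran from 250 bases before to 50 after the start. Of the 43 genes 35 had an entry, and 20 of the 35 held an ISRE match, against 3.99% of the 27025 genes of the table. The GAS letters, which read TTC, any 3 bases, GAA on both strands, occurred in 8 of the 35, against 9.55% of all genes, and 5 held both motifs. Members with an ISRE match had a median log2 fold change of 0.17 (20 tested, 8 higher at an unadjusted p under 0.05). Those without a match had a median of 0.21 (14 tested, 5 higher). Isg15, with 3 overlapping ISRE matches between -78 and -66, and Ifit1, with 2 matches at -104 and -85, were among the genes whose groups overlapped; these were picked after their values were seen. A match is a description of letters and not of binding.

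OAS enzymes recognise double-stranded RNA and make short oligoadenylates that set off the breakdown of RNA. In the Cre libraries Oas1g, Oas2, Oas3 and Oasl2 were more than double their control level, and all 6 members had groups that did not overlap. Of all tested genes 8.63% were higher in the Cre libraries without overlap. Oasl2, an OAS-like gene with ubiquitin-like domains, was at 0.963, 1.05 and 1.13 CPM in the controls and 2.06, 2.99 and 2.27 CPM in the Cre libraries. Every Cre library held more than any control, and the log2 fold change came to 1.22 ± 0.20 (edgeR adjusted p 0.146, DESeq2 0.000416). Oas2, which encodes a larger synthetase, was at 0.714, 0.698 and 0.915 CPM in the controls and 1.62, 2.71 and 1.43 CPM in the Cre libraries. Cre library 2 was the highest and the controls lay close together, and edgeR put the log2 fold change at 1.31 ± 0.29 (adjusted p 0.159, DESeq2 0.00635). Oas3, the largest synthetase, was at 1.13, 1.18 and 0.598 CPM in the controls and 2.18, 3.1 and 1.73 CPM in the Cre libraries. Control library 3 was the lowest of the 6, and the log2 fold change came to 1.27 ± 0.32 (edgeR adjusted p 0.184, DESeq2 0.0102).

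The small synthetase genes Oas1a and Oas1g are close copies. Oas1g was at 0.415, 0.299 and 0.334 CPM in the controls and 0.761, 1.41 and 0.966 CPM in the Cre libraries, which rests on 25, 18 and 19 control counts and 45, 91 and 52 Cre counts. Its log2 fold change came to 1.58 ± 0.31 (edgeR adjusted p 0.146, DESeq2 0.00811). Oas1a was by far the more abundant of the pair, at 13, 12 and 12.9 CPM in the controls and 14.1, 17 and 14.7 CPM in the Cre libraries. Its groups did not overlap either, but the difference was smaller, and edgeR put the log2 fold change at 0.27 ± 0.092 (adjusted p 0.281). Of the 50-base words in the longest transcript, 57.6% of Oas1a and 54.7% of Oas1g also occur in another gene. The sources used here do not say how reads that fit both copies were counted, so the split between them is uncertain. Their sum was 13.4, 12.3 and 13.3 against 14.9, 18.5 and 15.6 CPM and did not overlap. Oasl1, which lacks synthetase activity and is known to hold back translation of Irf7, was at 0.498, 0.382 and 0.282 CPM in the controls and 0.575, 0.666 and 0.576 CPM in the Cre libraries, and edgeR put the log2 fold change at 0.64 ± 0.29 (adjusted p 0.409). It rests on 16 to 43 counts per library. The further copies Oas1b and Oas1c, which are not members, were at 1.46, 1.51 and 1.18 against 1.34, 1.39 and 1.47 CPM and at 6.03, 4.87 and 5.23 against 4.83, 4.49 and 4.4 CPM, with log2 fold changes of 0.014 and -0.23. The groups of Oas1b overlapped, whereas every Cre value of Oas1c lay below every control value.

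**Figure D2:**
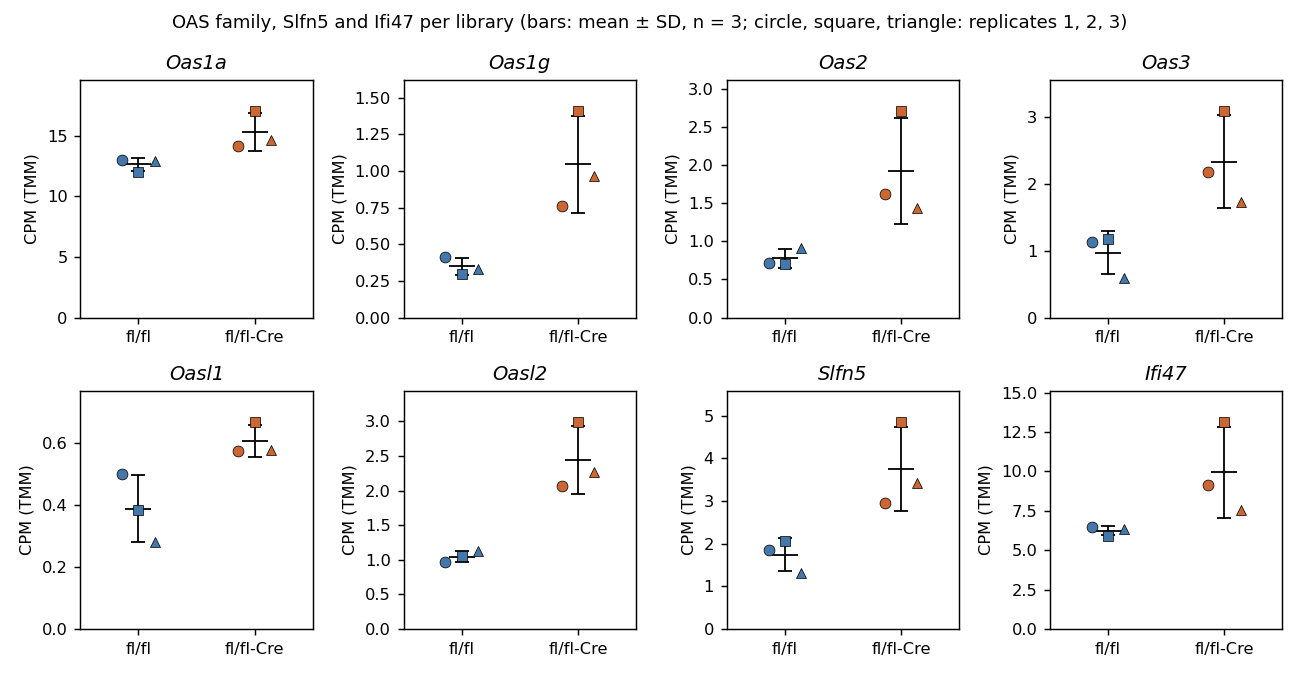
CPM of the 6 OAS genes, Slfn5 and Ifi47 in each library, with the mean and SD of 3 libraries per group as bars and the replicates 1, 2 and 3 as circle, square and triangle; axes start at 0. In each panel the 3 Cre values lie above the 3 control values, and Cre library 2 is the highest.

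Per library, the median of the OAS genes over the control mean was 1.02, 1.60 and 0.86 on the log2 scale in Cre libraries 1, 2 and 3. In the controls it was 0.13, -0.045 and -0.016. Cre library 2 was the highest Cre library for 6 of 6 OAS genes and for 28 of the 42 tested members. The same count was not made over all tested genes. The Cre libraries were unlike each other across all genes. The first principal component of all tested genes set Cre library 1 (-1.41) between the controls (-20.1 to -14.4) and Cre libraries 2 and 3 (28.7 and 27.1). In Cre library 1, all 6 OAS genes were above every control. Without that library edgeR called 2 of the 42 tested members, Oas1g at an adjusted p of 0.0423 and Oasl2 at 0.0327. That fit called 249 of 15641 tested genes higher in all, the most of the fits that left out 1 library. Interstitial macrophage markers differed between the Cre libraries too. The 9 markers summed to 23.4, 24.2 and 20.01 CPM in the controls and 25.6, 55.9 and 92.9 CPM in the Cre libraries, with C1qa, C1qb and C1qc among those whose groups did not overlap, higher in the Cre libraries, and Cd163 lower. The marker sum was largest in Cre library 3 and the OAS median in Cre library 2. In Cre library 1 the marker sum was 25.6 CPM, with 24.2 CPM in the highest control, and the OAS median was 1.02. A part of interstitial macrophages in the OAS values was not tested. B cell markers, 5 of 5 with a higher fitted value, summed to 10.2, 8.05 and 10.01 against 9.28, 12.1 and 15.7 CPM. Neutrophil markers, 5 tested of 6, summed to 52.5, 55.9 and 58.6 against 70.7, 65.4 and 66.9 CPM, mostly Csf3r, with Ly6g at 0 in all libraries. T and NK cell markers summed to 1.69, 1.58 and 1.23 against 1.79, 1.47 and 1.65 CPM. The neutrophil sums did not overlap between groups, and those of B cells and of T and NK cells did. Plasmacytoid dendritic cells, known as strong interferon producers, had a marker sum of 5.41, 4.09 and 2.96 against 3.41, 3.35 and 2.99 CPM, with their marker Siglech at most 0.149 CPM. Markers of classical monocytes summed to 24.4, 25.2 and 19.6 against 20.4, 22 and 23.5 CPM and those of conventional dendritic cells to 9.31, 9.69 and 7.88 against 6.61, 7.03 and 10.4 CPM. Those of epithelium summed to 221, 187 and 118 against 135, 72.6 and 90.3 CPM and those of endothelium to 16.3, 17 and 15.4 against 26.3, 13.4 and 14.6 CPM. The part of these cells in the OAS values was not tested.

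The IFIT genes, of which Ifit1 encodes a protein that binds viral RNA lacking the host's cap modification, did not separate the groups. Ifit1 was at 0.996, 0.648 and 0.493 CPM in the controls and 0.575, 0.883 and 0.65 CPM in the Cre libraries. Ifit2, the most abundant of the 3, was at 2.09, 1.63 and 1.11 CPM in the controls and 1.32, 2.45 and 1.49 CPM in the Cre libraries. Ifit3 was at 0.797, 0.781 and 0.598 CPM in the controls and 0.778, 0.728 and 0.929 CPM in the Cre libraries. For Ifit1 control library 1 exceeded all 3 Cre libraries and for Ifit2 it exceeded 2 of them, and for both control library 3 was the lowest of the 6. The log2 fold changes were -0.019 ± 0.32 for Ifit1, 0.12 ± 0.31 for Ifit2 and 0.16 ± 0.23 for Ifit3, with adjusted p of 0.99, 0.918 and 0.843 by edgeR. Single libraries decided the direction: Ifit1 was at 0.30 without control library 1 and at -0.23 without control library 3, and Ifit2 at 0.36 without control library 1 and at -0.20 without Cre library 2. Of the 50-base words of Ifit3, 51.2% also occur in another gene, chiefly its copy Ifit3b, and the sum of both was 0.946, 0.881 and 0.669 against 0.93, 0.976 and 0.947 CPM. Control means of the IFIT genes ran from 0.712 CPM (Ifit1) to 1.61 CPM (Ifit2). Those of Oas2, Oas3 and Oasl2 ran from 0.776 CPM (Oas2) to 1.05 CPM (Oasl2). Oas1g (0.35 CPM) and Oasl1 (0.387 CPM) were scarcer and Oas1a (12.6 CPM) was more abundant, so the groups are only partly at a like level. The OAS median minus the IFIT median was -0.25, -0.062 and 0.52 in the controls and 1.31, 1.29 and 0.97 in the Cre libraries on the log2 scale. These differences did not overlap between groups, and no test is given for them because the members were chosen with earlier results known.

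Schlafen genes encode proteins that restrain proliferation and viral translation. The 4 members differed in size of effect. Slfn5 was at 1.86, 2.06 and 1.3 CPM in the controls and 2.96, 4.85 and 3.42 CPM in the Cre libraries, so that every Cre library was above every control. Its log2 fold change came to 1.10 ± 0.25 (edgeR adjusted p 0.161, DESeq2 0.00273). Slfn2, which is needed for immune cell quiescence, was at 189, 172 and 182 CPM in the controls and 197, 211 and 225 CPM in the Cre libraries. At this level a small difference separated the groups: the log2 fold change came to 0.22 ± 0.065 (edgeR adjusted p 0.225, DESeq2 0.0528). Slfn1 was at 1.08, 0.682 and 1.06 CPM in the controls and 1.18, 1.63 and 1.34 CPM in the Cre libraries and did not overlap either, with a log2 fold change of 0.56 ± 0.25. Slfn8 was at 6.66, 5.12 and 5.49 CPM in the controls and 6.15, 8.49 and 4.89 CPM in the Cre libraries, and Cre library 3 lay below all controls, so the groups overlapped. The log2 fold change of Slfn8 was 0.18 ± 0.21, and 15.4% of its 50-base words occur in another gene, chiefly Slfn10-ps. The antisense gene Slfn5os, which overlaps exons of Slfn5, was at 0 in 5 libraries and at 0.0155 CPM in Cre library 2. The 4 members lie on chromosome 11 between 82951349 and 83122670, 1.84 to 1.99 Mb from Car4, whose floxed alleles both groups carry. Of the other Schlafen genes in the same cluster, Slfn9 was at 11.7, 13 and 13.1 against 15.6, 15.5 and 14.7 CPM (log2 fold change 0.28 ± 0.077), whereas Slfn3 and Slfn4 had overlapping groups, with log2 fold changes of 0.18 and 0.044.

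Parp9 and Parp14 belong to the ADP-ribosyltransferases, and Dtx3l is the ubiquitin ligase that pairs with Parp9. All 3 genes were slightly higher in the Cre libraries and none overlapped between groups, where 8.63% of all tested genes were higher without overlap. Parp14 was at 82, 88.8 and 94 CPM in the controls and 97.6, 97.8 and 97.2 CPM in the Cre libraries, and the Cre libraries lay within 1 CPM of each other. Parp9 was at 48.3, 43.7 and 52.5 CPM in the controls and 54.1, 55.9 and 55.6 CPM in the Cre libraries. Dtx3l was at 52.7, 53.6 and 57.8 CPM in the controls and 59.7, 62.4 and 65.4 CPM in the Cre libraries. The log2 fold changes were 0.14 ± 0.059 for Parp14, 0.20 ± 0.070 for Parp9 and 0.19 ± 0.057 for Dtx3l, with adjusted p of 0.367, 0.301 and 0.229 by edgeR. Parp9 and Dtx3l are divergent neighbours on chromosome 16 whose annotated exons share 458 bases, and without a stated strand setting reads from that stretch cannot be assigned. Of other ADP-ribosyltransferase genes, the interferon-stimulated Parp10, Parp11 and Parp12 had log2 fold changes of -0.049, 0.11 and 0.0012. Among 13 tested paralogs that are not members, Schlafen and PARP genes together, the median was -0.015, and Slfn9 alone reached an unadjusted p under 0.05. That is 7.69% of them, near the 6.54% of all tested genes that were higher. The most abundant of the 13 paralogs were Tnks2 and Tiparp, at 205, 217 and 204 against 221, 220.3 and 202 CPM and at 151, 164 and 202 against 175, 160.5 and 177 CPM.

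Guanylate-binding proteins (GBP) and immunity-related GTPases (IRG) are induced above all by type II interferon and attack the membranes around intracellular microbes. Of the 6 members all had a fitted value above control (median log2 fold change 0.23), and 3 (50%) did not overlap between groups. Of all tested genes 8.63% were higher in the Cre libraries without overlap. Ifi47, an IRG, was at 6.47, 5.92 and 6.32 CPM in the controls and 9.13, 13.1 and 7.54 CPM in the Cre libraries. Cre library 2 was well above the others, and the log2 fold change came to 0.67 ± 0.19 (edgeR adjusted p 0.211, DESeq2 0.0219). Gbp3 was at 7.29, 6.42 and 5.49 CPM in the controls and 7.3, 8.18 and 9.88 CPM in the Cre libraries (log2 fold change 0.40 ± 0.15). Gbp2 was at 30.6, 25.5 and 26.5 CPM in the controls and 30.9, 32.9 and 36.3 CPM in the Cre libraries (log2 fold change 0.28 ± 0.090). In both the lowest Cre library, number 1, lay only just above the highest control, and edgeR gave adjusted p of 0.333 and 0.266. Gbp7, the most abundant GBP here, was at 65.7, 63 and 65.9 CPM in the controls and 73.5, 56.5 and 66.6 CPM in the Cre libraries, with the lowest value of all in Cre library 2. Its log2 fold change was 0.014 ± 0.090. The IRG genes Igtp and Irgm1 had overlapping groups, at 11.5, 11.2 and 12.3 against 12.3, 12.3 and 11.9 CPM and at 20.6, 18 and 19.9 against 20.4, 25 and 21.3 CPM. Of the 50-base words of Igtp, 12.3% also occur in Irgm2, whose annotated exons share 162 bases with those of Igtp. The OAS median minus the median of this group was 0.062, 0.020 and -0.037 in the controls and 0.85, 1.29 and 0.66 in the Cre libraries on the log2 scale.

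**Figure D3:**
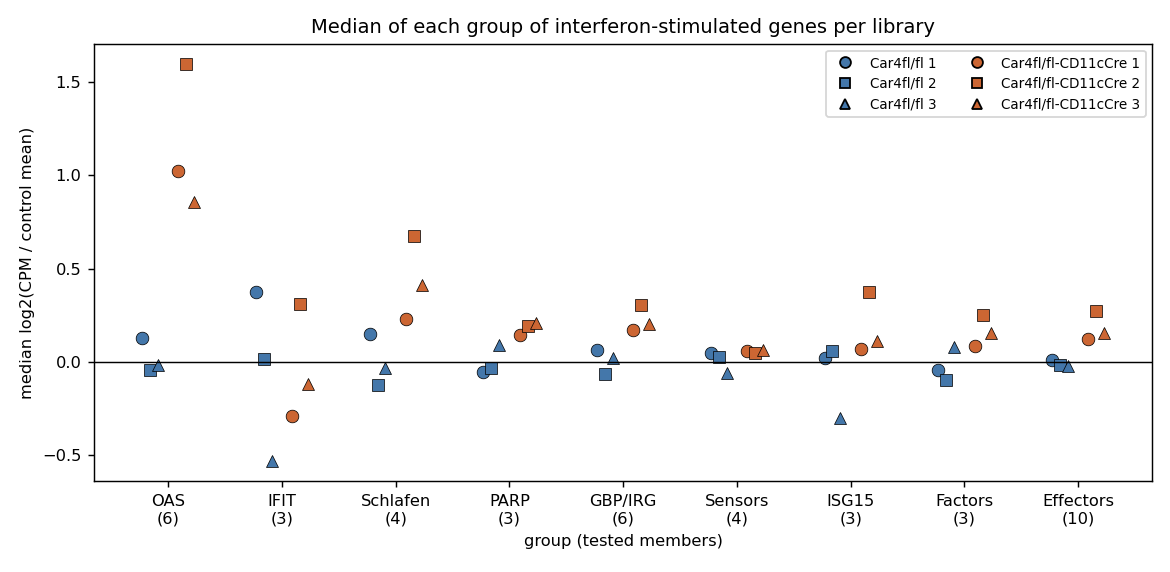
Median over the tested members of each group (number in brackets) of the log2 ratio to the control mean, per library, in the colours and symbols of the replicates. The OAS medians of the Cre libraries lie between 0.86 and 1.60, while those of the sensors lie between 0.047 and 0.063 and those of the IFIT genes on both sides of 0.

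The sensors of foreign nucleic acid lay close to control (median log2 fold change 0.072). Ifih1, which encodes the long double-stranded RNA sensor MDA5, was at 57.8, 57.7 and 53.5 CPM in the controls and 59.8, 61.6 and 64.3 CPM in the Cre libraries, and edgeR put the log2 fold change at 0.14 ± 0.053 (adjusted p 0.348). Its groups did not overlap. Ddx58, which encodes RIG-I, was at 49.2, 50.3 and 47.5 CPM in the controls and 50.2, 47.7 and 49.2 CPM in the Cre libraries. Eif2ak2, which encodes the RNA-activated kinase PKR, was at 52.2, 50.8 and 47.6 CPM in the controls and 53.2, 49 and 49.3 CPM in the Cre libraries. Both overlapped between groups, with log2 fold changes of 0.0010 ± 0.048 and 0.0084 ± 0.057. Zbp1, a sensor of Z-form nucleic acid that can start necroptosis, was at 12.3, 11.4 and 11.3 against 11.8, 15.6 and 12.7 CPM (log2 fold change 0.19 ± 0.12).

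Isg15, a ubiquitin-like protein attached to others on interferon exposure, was at 2.41, 1.65 and 1.36 CPM in the controls and 1.89, 2.34 and 1.95 CPM in the Cre libraries. Herc6, the ligase that attaches it in mice, was at 25.9, 26.6 and 24.2 CPM in the controls and 26.1, 27 and 24.5 CPM in the Cre libraries. Neither separated the groups, with log2 fold changes of 0.19 ± 0.24 and 0.018 ± 0.065. Usp18, which removes Isg15 and damps the type I receptor, was at 0.282, 0.333 and 0.229 CPM in the controls and 0.355, 0.713 and 1.56 CPM in the Cre libraries. This is the largest fold among the members in the edgeR fit, but the Cre libraries spanned 21 to 84 counts, and Cre library 1 was barely above the controls. Its log2 fold change came to 1.62 ± 0.53 (edgeR adjusted p 0.266), and 0.92 without Cre library 3.

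The transcription factor genes Stat2, Irf9 and Irf7 had a median log2 fold change of 0.14, and 0 of the 3 reached an unadjusted p under 0.05. Stat2 was at 56.2, 54.2 and 63.5 CPM in the controls and 57.3, 68.9 and 64.4 CPM in the Cre libraries. Irf9, its partner, was at 26.4, 27.5 and 29.4 CPM in the controls and 29.4, 30.6 and 31.7 CPM in the Cre libraries, with Cre library 1 only just above the highest control. Irf7, which amplifies type I interferon production, was at 4.7, 3.92 and 4.42 against 5.27, 6.07 and 4.59 CPM, with a log2 fold change of 0.29 ± 0.14. Control values of Stat2 and Irf7 reached into the Cre range.

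Among the other effectors 3 of 10 tested genes were higher at an unadjusted p under 0.05 and none was lower, with a median log2 fold change of 0.13. That is 30% higher, against 6.54% of all tested genes. Rsad2, which encodes the antiviral enzyme viperin, was at 1.05, 1.18 and 0.757 CPM in the controls and 1.3, 2.42 and 1.84 CPM in the Cre libraries. Its neighbour Cmpk2, a nucleotide kinase gene on the same stretch of chromosome 12, was at 0.913, 1.01 and 1.06 CPM in the controls and 1.54, 1.67 and 1.3 CPM in the Cre libraries. In both all Cre libraries exceeded all controls, with log2 fold changes of 0.90 ± 0.28 and 0.60 ± 0.19 and adjusted p of 0.26 and 0.266 by edgeR. Rtp4, a receptor-transporting protein gene, was at 1.28, 1.03 and 0.862 CPM in the controls and 1.99, 1.89 and 1.19 CPM in the Cre libraries, so Cre library 3 lay below the highest control (log2 fold change 0.68 ± 0.26, edgeR adjusted p 0.347). The most abundant of these genes were close to control. Trim30a was at 63.9, 65.7 and 67.4 against 67.7, 67.9 and 67.9 CPM, with no overlap but a log2 fold change of 0.046 ± 0.044. Bst2, which encodes tetherin, a tether of budding virus, was at 35.3, 29.6 and 29.3 against 31.6, 38.7 and 33.3 CPM (log2 fold change 0.14 ± 0.10). Ifi35 was at 31.4, 29.6 and 32.5 against 30.1, 31.2 and 29.8 CPM (log2 fold change -0.037 ± 0.057). Xaf1 and Isg20, the latter an RNA exonuclease gene, had overlapping groups, with log2 fold changes of 0.13 ± 0.15 and 0.085 ± 0.23. Mx1 and Mx2 encode dynamin-like antiviral GTPases, are known to be defective in many laboratory strains, and stood at 0.498, 0.316 and 0.176 against 0.389, 0.914 and 0.502 CPM and at 0.232, 0.249 and 0.246 against 0.101, 0.263 and 0.334 CPM. Their groups overlapped, with log2 fold changes of 0.86 ± 0.46 for Mx1 and -0.064 ± 0.45 for Mx2. Ifi44 failed the filter and was not tested, at 0.0166, 0.0831 and 0.088 against 0.169, 0.108 and 0.13 CPM, which is 1 to 10 counts per library.

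Per kilobase of annotated exon, Slfn2 was the most abundant member in the controls, at 109 CPM per kb. Bst2 followed at 34.8, then Ifi35 at 18 and Trim30a at 16 CPM per kb. Oas1a was at 6.71 CPM per kb, whereas Oas2, Oas3, Oas1g, Oasl1 and Oasl2 lay between 0.137 and 0.174 CPM per kb. Differences were larger among scarce members. With a control mean under 5 CPM, 20 tested members had a median log2 fold change of 0.62, against 0.020 for 5721 tested genes of that range. Of these members 6, or 30.0%, exceeded a log2 fold change of 1, against 6.36% of the genes. The 22 members at or above 5 CPM had a median of 0.14, against -0.0056 for 9426 genes. None of these members exceeded a log2 fold change of 1, and 0.361% of those genes did. Among all tested genes, fold changes also spread more widely under 5 CPM. Their 10th to 90th percentiles ran from -0.50 to 0.72 there, against -0.17 to 0.14 at or above 5 CPM. At an unadjusted p under 0.05, 9 members in each range were higher. That is 45% of the members under 5 CPM, against 8.36% of the genes there, and 40.9% of those at or above 5 CPM, against 5.43%.

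**Figure D4:**
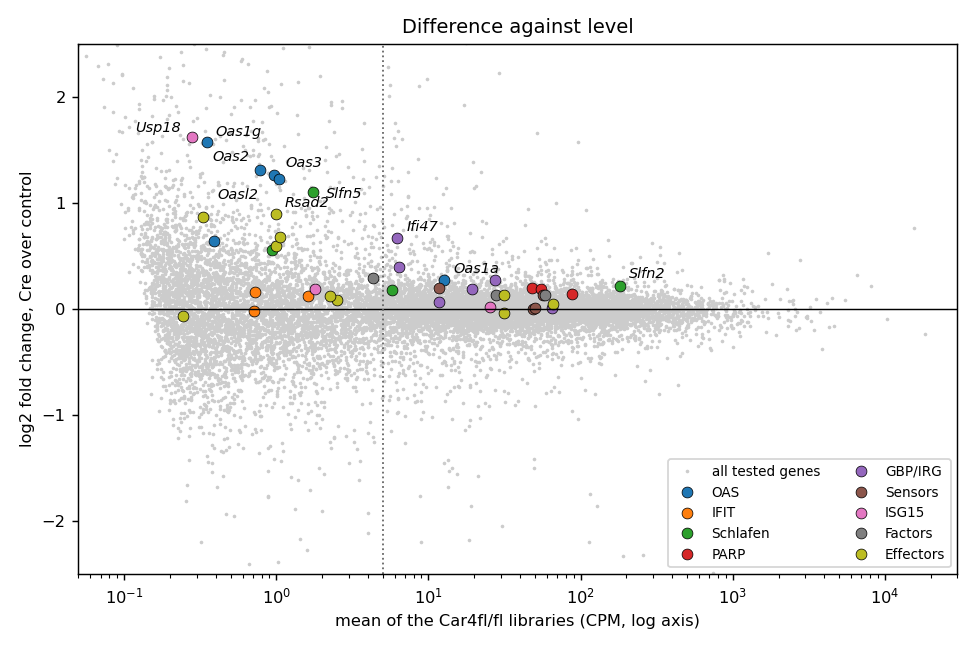
Log2 fold change against the mean CPM of the Car4fl/fl libraries (log axis) for all tested genes in grey, within the limits drawn, and for the 42 tested members by group; the dotted line marks 5 CPM. The members with the largest differences, among them Oas1g, Oas2, Oas3, Oasl2, Slfn5 and Usp18, lie under 5 CPM, and 21 of the 22 members at or above 5 CPM lie above 0.

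Interferons themselves were scarcely detected. Of 10 ligand genes 7, among them Ifna1, Ifna2, Ifna4, Ifne, Ifnl2 and Ifnl3, held 0 counts in all 6 libraries, which allows up to 0.0557 CPM in each. Ifnb1 held 1 count, in control library 1, and Ifng 4 counts, in Cre library 2. Ifnk, an interferon of epithelium, was the only one tested, at 0.0664, 0.15 and 0.158 against 0.203, 0.186 and 0.204 CPM. The receptor genes were well expressed, with Ifngr1 and Ifngr2 at 202, 183 and 182 against 191, 205 and 199 CPM and at 69.8, 58.4 and 60.4 against 62.7, 72.8 and 75.4 CPM. The type I chains Ifnar1 and Ifnar2 were at 54.8, 54.4 and 48.6 against 53.5, 53.1 and 56.9 CPM and at 47, 42.1 and 45.8 against 47, 48.2 and 48 CPM. Fitted values of all 5 tested receptor genes exceeded control, and their median log2 fold change was 0.086. Il10rb, a chain shared by the type III interferon and interleukin-10 receptors, was at 46, 41.4 and 41.4 CPM in the controls and 45.8, 64.2 and 52.2 CPM in the Cre libraries, the only one at an unadjusted p under 0.05 (edgeR adjusted p 0.294). That 1 of 5 is 20%, against 6.54% of all tested genes. Ifnlr1, the specific type III chain, failed the filter, at 0.0166, 0.0333 and 0 against 0.0676, 0.201 and 0.186 CPM.

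Downstream of the receptors the 9 tested kinase and factor genes lay close to control (median log2 fold change 0.038), with 0 at an unadjusted p under 0.05 in either direction. Jak1 was at 265, 275 and 272 against 282, 281 and 276 CPM and Irf8, a macrophage lineage factor, at 170.4, 153 and 162 against 157, 147 and 145 CPM. Among 15 upstream sensors and adaptors 1 reached an unadjusted p under 0.05 in each direction, with a median of 0.0057. That is 6.67% each way, near the 6.54% of all tested genes higher and 6.28% lower. The higher one was Ikbke, a kinase that activates interferon regulatory factors, at 5.5, 5.75 and 8.9 CPM in the controls and 7.83, 39.3 and 14.1 CPM in the Cre libraries, where Cre library 2 stood far above the others (edgeR adjusted p 0.278). Myd88, the adaptor of most Toll-like receptors, was at 155, 145 and 145 CPM in the controls and 138, 122 and 124 CPM in the Cre libraries, all Cre libraries below all controls (log2 fold change -0.21 ± 0.065, edgeR adjusted p 0.24). The most abundant of this list were Tlr4 and Tlr7, at 169, 161 and 161 against 168, 192 and 182 CPM and at 187, 163 and 124 against 150.0, 151 and 146 CPM. Of 9 negative regulators 1, Socs3, a feedback inhibitor of cytokine signalling, was higher at an unadjusted p under 0.05, at 17, 15.5 and 14.1 CPM in the controls and 16.6, 23.3 and 27.3 CPM in the Cre libraries (edgeR adjusted p 0.266, DESeq2 0.0436). That 1 of 9 is 11.1%, against 6.54% of all tested genes. The abundant Samhd1 and Ptpn6 were at 445, 443 and 500.2 against 469, 480.5 and 481 CPM and at 497, 437 and 463 against 444, 435 and 407 CPM.

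A further 60 interferon-stimulated genes were listed that are not members, of which 55 were found and 50 tested. Of the 50 tested, 35 had a fitted value above control and their median log2 fold change was 0.075. At an unadjusted p under 0.05, 9 were higher and 1 was lower, or 18% and 2.0%, against 6.54% and 6.28% of all tested genes. Lgals9, Gbp5, Ifi204, Mnda and Pml were among those of smallest p. Gbp5, a GBP linked to inflammasome assembly, was at 5.45, 4.82 and 5.63 against 6.71, 7.79 and 6.69 CPM. Ifi204 and Mnda, of the DNA-sensing p200 family, were at 18.5, 17 and 14.8 against 18.8, 21.4 and 22.5 CPM and at 2.22, 1.58 and 2.01 against 2.21, 3.22 and 3.14 CPM. Pml, which builds nuclear bodies, was at 15.4, 15.9 and 17.2 against 17.3, 19.4 and 19.5 CPM. Lgals9, which encodes galectin-9, was the lower one, at 73.2, 65.1 and 59.8 against 52.3, 57.3 and 54.2 CPM. The most abundant of the list, Trim25 and Shisa5, were at 507, 643 and 562 against 541, 439.6 and 518 CPM and at 559, 535 and 548 against 524, 520.3 and 481 CPM, with log2 fold changes of -0.19 and -0.11. The chemokine genes Cxcl9 and Cxcl10, often used as readouts of interferon exposure and picked here after their values were seen, were low, at 1.91, 1.45 and 0.827 against 1.18, 1.94 and 2.15 CPM and at 0.863, 1.03 and 0.898 against 0.524, 1.24 and 1.26 CPM.

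**Figure D5:**
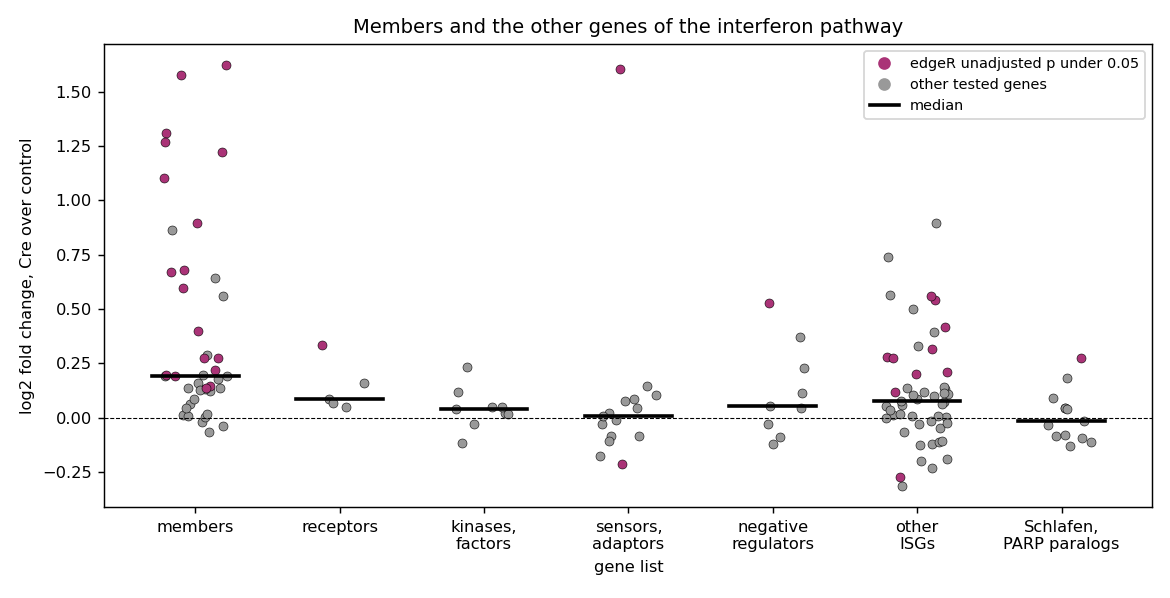
Log2 fold change of each tested gene among the members and 6 other lists of the pathway and its paralogs, with the median as a bar and genes at an edgeR unadjusted p under 0.05 in purple. The members' median is 0.19, and the medians of the other lists lie between -0.015 and 0.086.

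In the genome (GRCm38, GENCODE M21) the OAS genes form clusters on chromosome 5. Oas2 (ENSMUSG00000032690) lies on chromosome 5 at 120730333 to 120749853 (minus strand). Oas3 (ENSMUSG00000032661) follows on chromosome 5 at 120753098 to 120777661 (minus strand), then Oas1g (ENSMUSG00000066861) on chromosome 5 at 120876142 to 120887613 (minus strand) and Oas1a (ENSMUSG00000052776) on chromosome 5 at 120896256 to 120907521 (minus strand). Oasl2 (ENSMUSG00000029561) lies apart, on chromosome 5 at 114896936 to 114912234 (plus strand), next to Oasl1 on chromosome 5 at 114923240 to 114937915 (plus strand). Slfn5 (ENSMUSG00000054404) lies on chromosome 11 at 82951349 to 82964840 (plus strand). The ISRE window printed for Slfn5 lies inside the gene as GENCODE draws it, since RefSeq places that start further downstream.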

How the data were processed

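The authors deposited whole-number counts per gene, not normalized. Per the submitters' processing notes DESeq2 1.22.1, FastQC 0.11.8, Picard 2.21.1, SAMtools 1.9, STAR 2.6.1, StringTie 2.0, bcl2fastq 2.20.0.422, cutadapt 2.5, edgeR 3.26.5, featureCounts 1.6.4 and GRCm38 were used, with no role given. The sources used here do not give the annotation release, the strand setting or the handling of multiply mapped reads. Columns were assigned through library names in the labels. In R 4.3.3, edgeR 4.0.16 tested the counts over the whole table: filterByExpr (minimum count of 10), TMM, then glmQLFit with the two-sided glmQLFTest. P values were adjusted by Benjamini-Hochberg, with a threshold of 0.05. Standard errors are the absolute log2 fold change over the square root of F. DESeq2 1.42.0 and limma-voom (limma 3.58.1) were alternatives, beside other scalings, filters, robust dispersions, a replicate block and leaving out each library. The code was tested on simulated data. No pair of libraries of the same group agreed within sampling noise (chi-square per degree of freedom 21.9 to 57.5). The 3-count floors reflect counting error alone, and PCR duplicates share a molecule.

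The members and lists were chosen with earlier results of these data known. Named with values were members at an unadjusted p under 0.05 and the most abundant of each group, and of each other list up to 6 genes at an unadjusted p under 0.05 and the 2 most abundant; others were chosen after their values were seen. Some genes of the lists are counted but not reported here by name. Where a symbol had several rows the row with most counts was used. Exon lengths, loci and shared 50-base words come from GENCODE M21, promoters from RefSeq GRCm38.p6. Figures used matplotlib 3.10.9.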

Additional observations from a re-analysis of the deposited data

How the results depend on the processing

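Across 9 alternative settings and 6 fits that each left out 1 library, the median log2 fold change of the members ran from 0.15 to 0.27. That of the OAS genes ran from 0.28 to 1.36. DESeq2 called 345 genes higher and 219 lower, 6 of them members, and edgeR without a filter 340 and 183, 5 of them members. Requiring at least 5 CPM in 3 libraries left 1 OAS gene, Oas1a, and no IFIT gene. Under it 21 members were above control, 9 of 22 were higher at an unadjusted p under 0.05 (6.6% of all tested genes), and the medians were 0.28 for OAS and 0.053 for the other effectors. Robust dispersions called 0 genes lower. The replicate numbers did not pair the libraries: same-numbered libraries deviated with correlations of -0.033, -0.19 and 0.044, and 1 of 6 libraries correlated best with its own number. With the replicate number as a block edgeR called 8 genes higher and 2 lower and 0 members, and 15 of 42 members were higher at an unadjusted p under 0.05, against 5.39% of all tested genes in that fit.

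Leaving out 1 library gave 1 to 249 genes higher, most without Cre replicate 1, and 0 to 52 lower, fewest without control replicate 2 and most without control replicate 3. It gave 0 to 2 members called, 12 to 19 of 42 higher at an unadjusted p under 0.05 (4.61% to 7.88% of all tested genes in the same fits), and medians of 0.020 to 0.46 for Isg15 conjugation, 0.053 to 0.24 for the other effectors, -0.20 to 0.30 for IFIT and 0.99 to 1.36 for OAS. RLE, upper quartile and library-size scaling moved the median of all genes by less than 0.01. Many members under 5 CPM rest on few counts. Their median standard error was 0.27, against 0.072 for members at or above 5 CPM, so small differences were harder to detect there.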
